A study of Homo sapiens with 4 samples.

Results

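The genes of polyamine metabolism were followed through short enzalutamide (ENZ) exposure and acquired resistance in LNCaP, an androgen-sensitive human prostate cancer cell line. The 10 genes were picked by symbol from the 33538 genes listed: ODC1, AMD1, SRM and SMS for synthesis, SAT1, PAOX and SMOX for breakdown, and OAZ1, OAZ2 and AZIN1 for the control of the first enzyme. Single-cell RNA sequencing (scRNA-seq) of sorted living cells gave 4 libraries. LNCaP was the parental line, called parental cells below, given DMSO at 0.1% for 48 h, LNCaP-ENZ48 the same line given 10 µM of the prostate cancer drug ENZ for 48 h, and RES-A and RES-B were 2 resistant derivatives of that line kept in 10 µM ENZ. RES-A had been derived under rising ENZ and RES-B under RD-162, a close relative of ENZ, and each stands for 1 selected line. Every group was 1 library, so no difference below has a replicate check and none was tested. All intervals are 95% intervals that cover counting error only.

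Polyamines are small, positively charged molecules that bind RNA and DNA and are needed for translation and cell growth. ODC1 turns ornithine into putrescine, AMD1 makes the aminopropyl donor from S-adenosylmethionine, and SRM and SMS use it to build spermidine and then spermine. SAT1 acetylates spermidine and spermine for export or for oxidation by PAOX, while SMOX oxidizes spermine directly. Antizymes (OAZ1, OAZ2) bind ODC1 and send it to the proteasome, and the antizyme inhibitor AZIN1 captures antizyme and so frees ODC1. Prostate epithelium secretes large amounts of spermine into seminal fluid, and androgens are known to raise ODC1 there.

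After filtering, LNCaP kept 1782 cells, LNCaP-ENZ48 4315, RES-A 4569, and RES-B 4061, with 50208831 to 60838227 UMIs in all (a UMI marks 1 captured RNA molecule). LNCaP had the fewest and deepest cells, with a median of 27079.5 UMIs per cell against 12138 to 13676 elsewhere. Pairs of libraries shared 2 to 12 barcodes. KLK3, an androgen-induced gene that encodes prostate-specific antigen, was at 718 CPM (UMIs per 1000000) in parental cells, 94.97 after 48 h of ENZ, 0.0349 in RES-A and 30.5 in RES-B. Luminal epithelial markers KRT8 (171 to 250.1 CPM), KRT18 (433 to 918 CPM) and FOLH1 (184 to 533 CPM) were detected in every library. Basal markers (KRT5, KRT14, TP63) summed to at most 0.299 CPM and leukocyte markers (PTPRC, CD3D, LYZ) to at most 0.105, with 2 or all 3 genes of each list at 0. Fibroblast markers (COL1A1, COL1A2, DCN) summed to 1.46 to 3.21 CPM and endothelial markers (PECAM1, VWF, CDH5) to 0.115 to 1.04.

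Of the 10 polyamine genes, 8 reached a mean of 10 CPM over the libraries, and PAOX and SMOX did not. A log2 CPM ratio of at least 0.5 in size was used to count genes. After 48 h of ENZ none of the 8 was higher and none lower by this measure, beside 1.47% of all 7460 genes past the same minimum that were higher and 4.89% that were lower. In RES-A against LNCaP none was higher (14.6% of all genes) and 2, AMD1 and SAT1, were lower (14.7% of all genes). In RES-B against LNCaP 1 was higher, SRM (18.6%), and 1 lower, SAT1 (10.6%). With totals scaled by edgeR TMM or DESeq2 factors, or in cells called G1, SRM fell short of this size in RES-B. AMD1 reached it there, so that none was higher and 2 were lower. Of all 7460 genes, 1000 were then higher and 1055 lower with TMM factors, and 1027 and 1036 with DESeq2 factors. Under all of these settings AZIN1 passed 0.5 in size in RES-A, where 3 were then lower. Beside this, 1261 of all genes were lower there with TMM and 1216 with DESeq2 factors. All genes were not counted in cells called G1. In RES-B against RES-A none was higher (16%) and 1, ODC1, was lower (7.8%). The median ratio of the 8 genes was -0.074 after 48 h of ENZ, 0.059 in RES-A and -0.083 in RES-B, each against LNCaP, beside medians of -0.074, 0.020 and 0.11 over all genes. The 8 ratios lay on both sides of 0 in each comparison, and the pathway is described gene by gene. The 3 comparisons with LNCaP share that library. The split of all genes depended on the scaling: 23.2% of genes past 0.5 in LNCaP-ENZ48 were higher with plain totals and 44.8% with TMM factors, and for RES-B against LNCaP the shares were 63.8% and 48.7%.

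**Figure D1:**
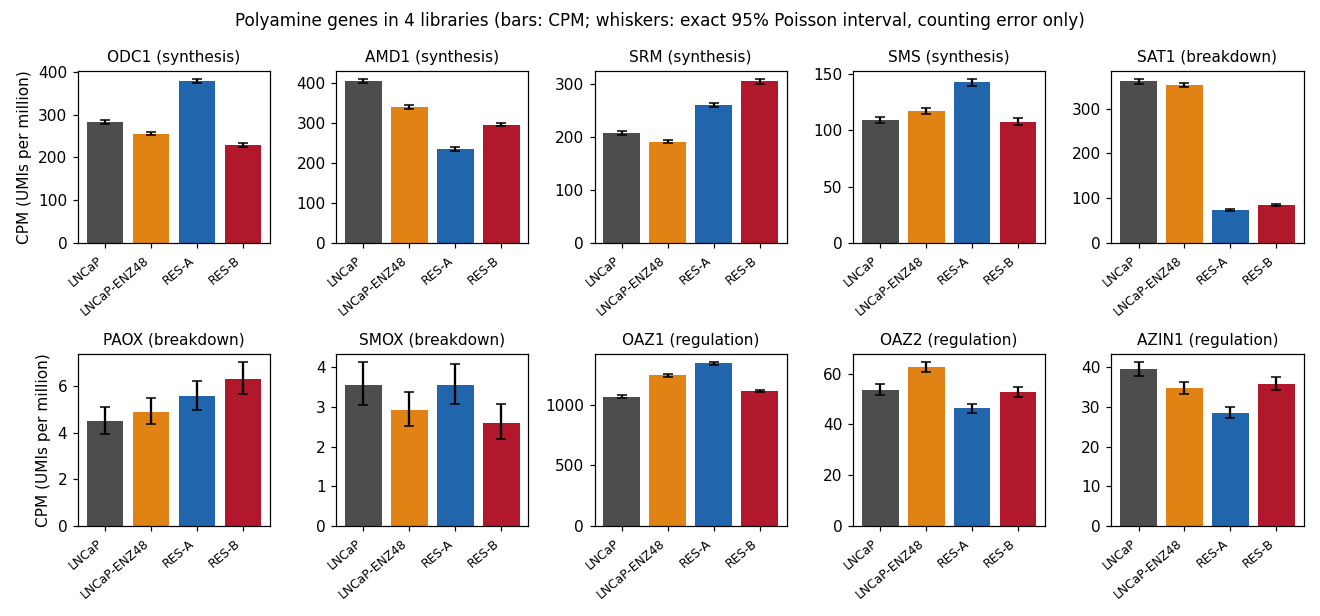
Level of each polyamine gene in CPM (y axis, starting at 0) in the 4 libraries (x axis), with whiskers for the exact 95% Poisson interval of the count. SAT1 stood at 361 CPM in LNCaP and 353 after 48 h of ENZ, against 73.1 in RES-A and 83.9 in RES-B, while the log2 CPM of no other member spanned 1 over the libraries.

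ODC1 (ENSG00000115758, chr2:10439968-10448327, minus strand, GRCh38), the first and rate-limiting enzyme of the pathway, differed in opposite directions in the resistant lines. Its level was 284 CPM in parental cells, 256 after 48 h of ENZ, 378 in RES-A and 229 in RES-B. RES-A was highest and RES-B lowest, and the counting intervals of the 4 libraries did not overlap. Against LNCaP the log2 ratio was -0.15 (-0.18 to -0.12) after 48 h of ENZ, 0.42 (0.38 to 0.45) in RES-A and -0.31 (-0.34 to -0.27) in RES-B. The gap between the resistant lines was the widest of the synthesis genes, at -0.72 (-0.76 to -0.69) for RES-B against RES-A. With TMM factors the ratio after 48 h of ENZ was -0.055 and with DESeq2 factors -0.049, about 3 times smaller than with plain totals. The sign of each of these ratios was kept under all 8 alternative settings of filter, scaling and cell choice. Genes induced by androgens differed among themselves in RES-A, where ODC1 was highest. KLK3 and KLK2 were nearly absent there, at 0.0349 and 0.0872 CPM. TMPRSS2 was at 7.50 CPM against 106 in parental cells, and FKBP5 at 17.9 against 19.8. The part of the androgen response in the ODC1 ratios was not tested.

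AMD1 (ENSG00000123505, chr6:110874770-110898879, plus strand), which supplies the aminopropyl groups for both later steps, was highest in LNCaP and lower in each other library. It stood at 405 CPM in parental cells, 340 after 48 h of ENZ, 235 in RES-A and 296 in RES-B, with intervals that did not overlap. The log2 ratio against LNCaP was -0.25 (-0.28 to -0.23) after 48 h of ENZ, -0.78 (-0.82 to -0.75) in RES-A and -0.45 (-0.48 to -0.42) in RES-B. The order of the resistant lines was thus the reverse of that of ODC1. GENCODE 44, an annotation later than the one behind the counts, holds 5 pseudogenes named after AMD1. Reads that fit more than 1 gene were dropped in counting. Whether AMD1 lost reads in this way was not tested, so its level may be less certain than its ratio between libraries.

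The synthases SRM and SMS differed from each other. SRM (ENSG00000116649, chr1:11054584-11060020, minus strand), which makes spermidine, was at 207 CPM in parental cells, 191 after 48 h of ENZ, 260 in RES-A and 304 in RES-B. It was higher in both resistant lines than in either LNCaP library. The log2 ratio against LNCaP was -0.12 (-0.15 to -0.078) after 48 h of ENZ, 0.33 (0.29 to 0.37) in RES-A and 0.56 (0.52 to 0.59) in RES-B, and the last of these was 0.45 with TMM factors. In cells called G1 the SRM ratio of RES-A against LNCaP was smaller, at 0.17. The lower SRM level after 48 h of ENZ depended on the scaling, since its ratio was -0.021 (-0.059 to 0.017) with TMM and -0.015 (-0.053 to 0.023) with DESeq2 factors. SMS (ENSG00000102172, chrX:21940709-21994837, plus strand), which makes spermine, was at 109 CPM in parental cells, 117 after 48 h of ENZ, 142 in RES-A and 108 in RES-B. SMS was highest in RES-A, at 0.38 (0.33 to 0.43) against LNCaP, while the difference of RES-B from LNCaP depended on the scaling. It was -0.020 (-0.074 to 0.034) with plain totals, -0.13 (-0.18 to -0.072) with TMM and -0.12 (-0.17 to -0.065) with DESeq2 factors. The same later annotation holds 3 pseudogenes named after SRM and 1 named after SMS, with the same possible limit on their levels.

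SRM and ODC1 are textbook targets of MYC, which binds CACGTG, and the sequence before the start of SRM is shown because it holds this motif, in capitals. The bases are from RefSeq (GRCh38.p14) and end where the annotated gene begins.
SRM (chr1:11060021-11060268, minus strand): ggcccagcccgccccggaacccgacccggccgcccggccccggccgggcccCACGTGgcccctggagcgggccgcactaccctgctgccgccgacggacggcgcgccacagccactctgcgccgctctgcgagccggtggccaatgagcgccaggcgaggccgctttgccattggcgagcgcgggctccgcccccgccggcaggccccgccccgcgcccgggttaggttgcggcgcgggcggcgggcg
The motif reads the same on both strands and begins 199 bases before the RefSeq start of SRM. RefSeq promoters (250 bases before to 50 after a gene's start) were found for 7 of the 10 genes, 10 promoters in all; those of PAOX, SMOX and AZIN1 were not matched. CACGTG was present in that of SRM and in 1 of the 2 promoters of ODC1, beginning 29 bases before that start, and in 7.26% of 35116 promoters overall. MYC itself was at 186 CPM in parental cells, 115 after 48 h of ENZ, 139 in RES-A and 130 in RES-B. MYC transcripts were thus highest in LNCaP, SRM in RES-B and ODC1 in RES-A. The part of MYC in the levels of SRM and ODC1 was not tested.

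SAT1 showed the widest differences of the 10 genes. SAT1 (ENSG00000130066, chrX:23783173-23786210, plus strand), the rate-limiting enzyme of polyamine breakdown, was at 361 CPM in parental cells, 353 after 48 h of ENZ, 73.1 in RES-A and 83.9 in RES-B. Parental and treated LNCaP were not separated in a stable way: the log2 ratio of LNCaP-ENZ48 against LNCaP was -0.032 (-0.061 to -0.0039), and it turned to 0.063 with TMM factors and to 0.069 with DESeq2 factors. Both resistant lines were far below them. Against LNCaP the level was 4.94-fold lower in RES-A (log2 ratio -2.30, -2.35 to -2.26), and in RES-B 4.30-fold lower (-2.11, -2.15 to -2.06). Over the 8 alternative settings the ratio ranged from -2.36 to -2.01 in RES-A and from -2.21 to -2.02 in RES-B. Ranked from the lowest ratio among the 7460 genes, SAT1 was number 73 in RES-A and number 63 in RES-B. RES-B stood 0.20 (0.14 to 0.26) above RES-A, a gap that was absent in cells called G1 (-0.0066). A gene model without a symbol in the later annotation overlaps SAT1. Whether reads from it were counted as SAT1 was not tested.

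The 250 bases before the start of SAT1 are shown because this gene carried the widest difference. They do not hold CACGTG and are in lower case throughout.
SAT1 (chrX:23782923-23783172, plus strand, RefSeq, GRCh38.p14): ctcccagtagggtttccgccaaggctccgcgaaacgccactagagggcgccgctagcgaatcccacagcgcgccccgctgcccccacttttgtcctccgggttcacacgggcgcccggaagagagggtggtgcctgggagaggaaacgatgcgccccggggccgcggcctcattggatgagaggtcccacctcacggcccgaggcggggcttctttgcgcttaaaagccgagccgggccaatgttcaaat
No match says only that these letters are not in this window.

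The other breakdown genes were counted far less often and have wider intervals. PAOX (ENSG00000148832), the peroxisomal oxidase of acetylated polyamines, had 226 to 332 UMIs per library and stood at 4.50 CPM in parental cells, 4.91 after 48 h of ENZ, 5.56 in RES-A and 6.32 in RES-B. Neighbours in this order overlapped in their intervals, and the ratio of RES-B against LNCaP was 0.49 (0.24 to 0.74). SMOX (ENSG00000088826), the spermine oxidase, had 137 to 204 UMIs per library. It stood at 3.57 CPM in parental cells, 2.93 after 48 h of ENZ, 3.56 in RES-A and 2.61 in RES-B, with overlapping intervals between neighbours. At this depth the SMOX ratio of RES-A against LNCaP could lie anywhere from -0.30 to 0.29.

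**Figure D2:**
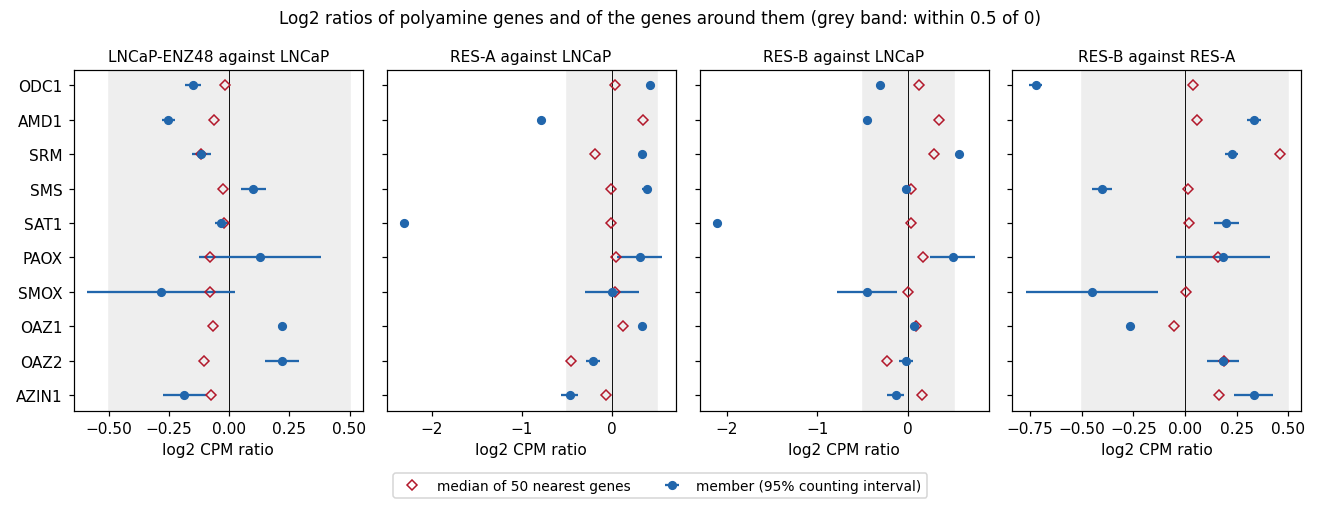
Log2 CPM ratio (x axis) of each polyamine gene (y axis, blue points with 95% counting intervals) in the 4 comparisons, with the median ratio of the 50 nearest genes on the same chromosome as open red diamonds and ratios under 0.5 in size in grey; the x axes of the panels differ. SAT1 lay at -2.30 and -2.11 in the resistant lines with its neighbours near 0, AMD1 lay on the other side of 0 from its neighbours there, and the point of OAZ1 in RES-B (0.063) turned to -0.043 with TMM factors.

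The antizymes are known for a built-in sensor: their reading frame holds an early stop codon, and ribosomes shift by 1 base to read on when polyamines are plentiful. The annotated coding sequences of OAZ1, OAZ2 and their relative OAZ3 each skip 1 base at this point. The sites are shown because they are the feature that sets these regulators apart, with the stop codon of the first frame in capitals (27 bases each, GRCh38, read 5′ to 3′ on the strand of the gene).
OAZ1 (chr19:2271431-2271457, plus strand): cggtggtgctccTGAtgcccctcaccc
OAZ2 (chr15:64691501-64691527, minus strand): ctgtggtgctccTGAtgcccctcaccc
OAZ3 (chr1:151767212-151767238, plus strand): ctccagtgctccTGAgtccctagtagg
The skipped base is the first letter of the stop codon, at position 2271443 of chromosome 19 for OAZ1 and 64691515 of chromosome 15 for OAZ2. UMI counts measure the transcripts only and carry no value for the frameshift or the protein.

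Over the libraries the log2 CPM of the regulators spanned 0.33 for OAZ1, 0.43 for OAZ2 and 0.47 for AZIN1. OAZ1 (ENSG00000104904) was at 1065 CPM in parental cells, 1239 after 48 h of ENZ, 1338 in RES-A and 1113 in RES-B. Its log2 ratio against LNCaP was 0.22 (0.20 to 0.23) in LNCaP-ENZ48 and 0.33 (0.31 to 0.35) in RES-A, while in RES-B it was 0.063 (0.046 to 0.080) with plain totals, -0.043 with TMM and -0.035 with DESeq2 factors. OAZ2 (ENSG00000180304) was at 53.7 CPM in parental cells, 62.4 after 48 h of ENZ, 46.4 in RES-A and 52.6 in RES-B. It was highest after 48 h of ENZ (0.22, 0.15 to 0.29) and lowest in RES-A (-0.21, -0.29 to -0.13). For RES-B against LNCaP the OAZ2 ratio was -0.028 with plain totals, with an interval that held 0, and -0.13 (-0.21 to -0.057) with TMM factors. AZIN1 (ENSG00000155096, chromosome 8, minus strand) was at 39.4 CPM in parental cells, 34.6 after 48 h of ENZ, 28.5 in RES-A and 35.8 in RES-B. Among the libraries, RES-A thus held the lowest level of the inhibitor, at -0.47 (-0.56 to -0.37), and the highest of OAZ1. This AZIN1 ratio was -0.52 with TMM factors, -0.51 with DESeq2 factors and -0.57 in cells called G1. In the later annotation OAZ1 overlaps JSRP1 and AZIN1 overlaps MAILR.

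Ratios of 2 genes within a library do not depend on how libraries are scaled. They did depend on the choice of cells: in cells called G1, 14 of the 16 ratios below moved outside their counting interval. For example, SAT1 to ODC1 in RES-A was 0.193 in all cells and 0.240 in cells called G1. A UMI ratio also carries how well each RNA is captured, so it is compared between libraries only. The ratio of ODC1 to OAZ1, the enzyme to its main inhibitor, was 0.266 in parental cells, 0.206 after 48 h of ENZ, 0.283 in RES-A and 0.206 in RES-B. LNCaP-ENZ48 (0.203 to 0.210) and RES-B (0.202 to 0.210) were not separated on this measure, although their OAZ1 levels differed. The ratio of SAT1 to ODC1, breakdown against synthesis, was 1.27 in parental cells, 1.38 after 48 h of ENZ, 0.193 in RES-A and 0.366 in RES-B. On this measure the resistant lines differed from each other as well as from LNCaP. AMD1 to SMS was 3.71 in parental cells, 2.90 after 48 h of ENZ, 1.65 in RES-A and 2.75 in RES-B, and SRM to SMS was 1.89, 1.63, 1.83 and 2.82 in the same order. RES-A thus held the lowest AMD1 to SMS ratio and RES-B the highest SRM to SMS ratio.

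Resistant derivatives can carry gains and losses of chromosome segments, so each gene was set beside its 50 nearest measured genes, as their median log2 ratio against LNCaP relative to the median of all genes. Around SAT1 this was -0.033 in RES-A and -0.078 in RES-B, over a stretch of the X chromosome that reached 23.4 Mb from the gene. SAT1 itself was over 4-fold lower in both lines, and copy number at SAT1 was not tested. The same stretch surrounds SMS. Around AMD1 the genes were higher, by 0.32 in RES-A and 0.22 in RES-B, while AMD1 itself was lower. Around SRM the median was -0.21 in RES-A and 0.18 in RES-B. In RES-B against RES-A it was 0.37, on the same side as SRM (0.23), and the part of this stretch in the SRM ratio was not tested. Around OAZ2 the genes were lower in both lines (-0.48 in RES-A and -0.35 in RES-B), as was OAZ2 in RES-A. Around ODC1 the medians were 0.0070 in RES-A and 0.00039 in RES-B, and around AZIN1 and OAZ1 they lay between -0.086 and 0.096.

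**Figure D3:**
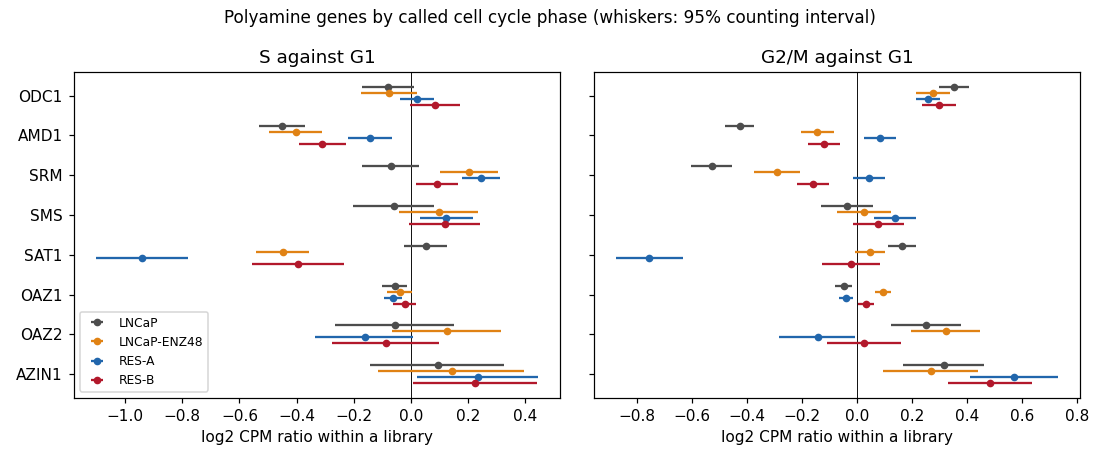
Log2 CPM ratio (x axis) of cells called S (left) or G2/M (right) against cells called G1 in the same library, for the 8 polyamine genes above the minimum (y axis); colours mark the libraries and whiskers the 95% counting interval. ODC1 and AZIN1 lay above 0 in G2/M in all 4 libraries, and SAT1 in RES-A lay lowest in both panels, at -0.94 and -0.76.

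Cell cycle phases were called from transcripts in cells thinned to 5000 UMIs. The share called G1 was 71.1% in parental cells, 81.2% after 48 h of ENZ, 66.5% in RES-A and 72.2% in RES-B. ODC1 was higher in G2/M than in G1 in each library, by 0.35 in parental cells, 0.28 after 48 h of ENZ, 0.26 in RES-A and 0.30 in RES-B on the log2 scale. AZIN1 was too, by 0.32, 0.27, 0.57 and 0.49. AMD1 was lower in S than in G1 in each library, with log2 ratios of -0.45 in parental cells, -0.40 after 48 h of ENZ, -0.14 in RES-A and -0.31 in RES-B. SRM in G2/M differed between libraries, from -0.53 (-0.60 to -0.45) in LNCaP to 0.044 (-0.013 to 0.10) in RES-A. SAT1 in RES-A was lower in both S (-0.94, -1.10 to -0.78) and G2/M (-0.76, -0.88 to -0.63) than in G1. In the other libraries SAT1 in G2/M lay between -0.021 and 0.16, and in S at -0.45 in LNCaP-ENZ48, -0.39 in RES-B and 0.052 in LNCaP. In cells called G1 alone the SAT1 ratio of RES-A against LNCaP was -2.01, beside -2.30 in all cells. OAZ1 varied least with phase, by at most 0.096 in size.

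**Figure D4:**
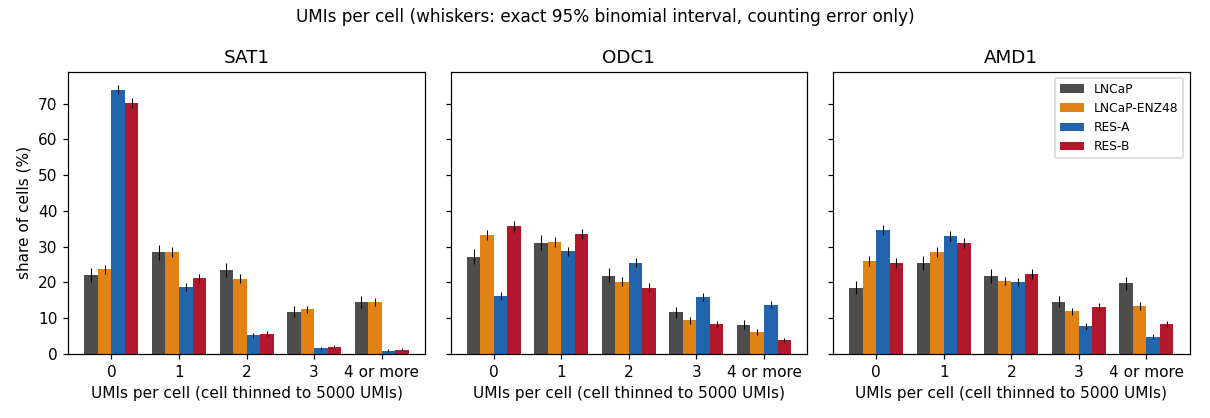
Share of cells in % (y axis) with 0, 1, 2, 3 or at least 4 UMIs (x axis) of SAT1, ODC1 and AMD1 after every cell was thinned to 5000 UMIs; colours mark the libraries and whiskers the exact 95% binomial interval. SAT1 was at 0 in 73.8% of cells of RES-A and 70.1% of cells of RES-B against 22.1% of LNCaP and 23.7% of LNCaP-ENZ48 cells.

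At 5000 UMIs per cell, a SAT1 UMI was held by 77.9% of parental cells (75.9 to 79.9%), 76.3% of cells after 48 h of ENZ, 26.2% of those from RES-A and 29.9% of those from RES-B. Before thinning the shares were 99.7%, 95.6%, 46.9% and 52.8%. All cells are of 1 line, so no cells that lack the gene give a background level. Cells with at least 4 SAT1 UMIs were 14.4% of the parental library, 14.5% of that after 48 h of ENZ, 0.919% of that of RES-A, and 1.16% of that of RES-B. The share of cells was lower in both resistant lines at 1, 2, 3 and at least 4 UMIs.

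The spread over cells was described by the Fano factor, the variance over the mean, which is 1 where cells differ by counting alone. For SAT1 it was 1.55 in parental cells, 1.91 after 48 h of ENZ, 1.66 in RES-A and 1.67 in RES-B. Mean SAT1 UMIs per thinned cell were 1.82, 1.85, 0.380 and 0.441 in the same order. The Fano factor also depends on the mean, so these like values do not say that the spread relative to the mean was alike. SAT1 remained uneven at its low level: the top 10% of cells held 57.3% of its UMIs in RES-A and 54.9% in RES-B, against 29.5% in LNCaP and 32.0% in LNCaP-ENZ48, shares that also grow as a gene becomes sparser. AMD1 was more uneven in LNCaP (1.68) and LNCaP-ENZ48 (1.73) than in RES-A (1.20) and RES-B (1.26). ODC1 was at 1.86, 1.47, 1.13 and 1.21 in the same order, but 1 LNCaP cell with 35 UMIs raised the first value, which was 1.46 without it. SMS, OAZ2 and AZIN1 lay between 0.976 and 1.05. OAZ1 was detected in at least 99.0% of cells of every library.

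Genes that supply or use polyamines were taken from 5 lists with 26 genes, of which 18 reached a mean of 10 CPM, and those with a ratio of at least 0.5 in size are named. In the list for arginine and methionine supply, 4 of 6 measured genes were lower after 48 h of ENZ and none was higher, beside 4.89% of all genes lower and 1.47% higher, with a list median of -0.57 beside -0.074 for all genes. That count was 3 with TMM factors (without ARG2) and 2 with DESeq2 factors (without ARG2 and SLC7A1). Of all 7460 genes, 229 were lower with TMM and 223 with DESeq2 factors. The widest of these was MAT2A, which makes S-adenosylmethionine, the substrate of AMD1. MAT2A was at 238 CPM in parental cells, 112 after 48 h of ENZ, 238 in RES-A and 396 in RES-B, a log2 ratio of -1.09 (-1.13 to -1.05) in LNCaP-ENZ48 and 0.73 (0.70 to 0.76) in RES-B. It was thus lowest under short ENZ and highest in RES-B. OAT, which makes or uses ornithine in mitochondria, was at 6.97 CPM in parental cells, 4.21 after 48 h of ENZ, 10.1 in RES-A and 20.4 in RES-B. Levels of the arginine transporter SLC7A1 were 49.8, 32.9, 31.5 and 53.0 CPM and those of the mitochondrial arginase ARG2 70.3, 48.4, 49.6 and 58.2 CPM in the same order. Relative to all genes, the 50 genes around SLC7A1 were higher by 0.28 in RES-B against LNCaP and by 0.44 in RES-B against RES-A. SLC7A1 itself was at 0.090 and 0.75 in these comparisons, and the part of this stretch in its ratios was not tested. AHCY, which clears S-adenosylhomocysteine, was at 186, 183, 205 and 137 CPM, lowest in RES-B. With TMM or DESeq2 factors AHCY also passed 0.5 in size in RES-B, and OAT no longer did in RES-A. ARG1, the liver arginase, had 1 UMI in parental cells, 0 after 48 h of ENZ, 11 in RES-A and 1 in RES-B.

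**Figure D5:**
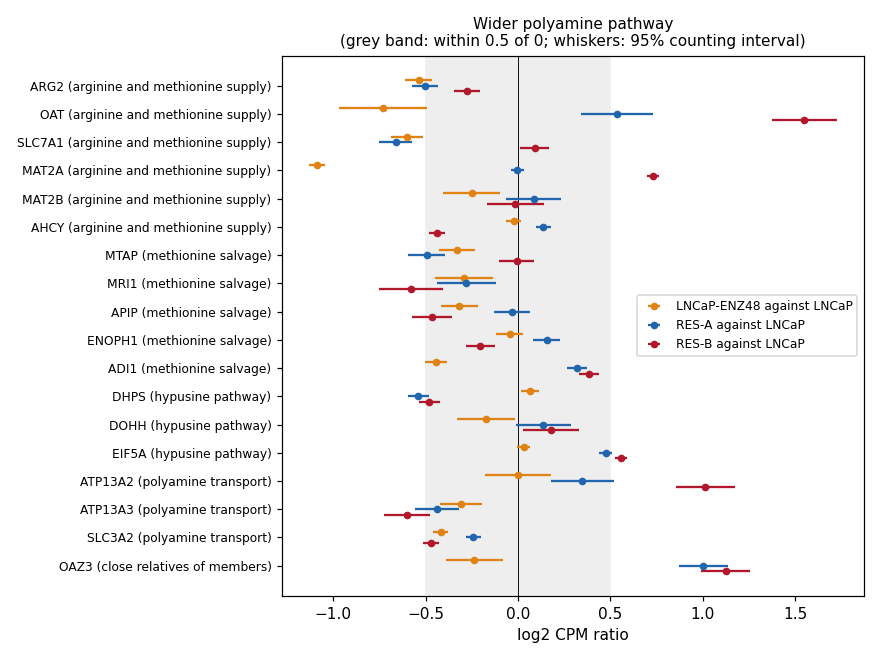
Log2 CPM ratio against LNCaP (x axis) of the 18 measured genes of the wider pathway (y axis, with the list of each in brackets), coloured by library, with 95% counting intervals and ratios under 0.5 in size in grey. MAT2A lay at -1.09 in LNCaP-ENZ48 and 0.73 in RES-B, OAT reached 1.55 in RES-B, and OAZ3 lay near 1 in both resistant lines.

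Of the 5 methionine salvage genes, 1 was lower in RES-B by this measure, MRI1 (13.3 CPM in LNCaP and 8.92 in RES-B), beside 10.6% of all genes, and none passed in LNCaP-ENZ48 or RES-A. With TMM or DESeq2 factors 2 were lower in RES-B, with APIP, and 1 in RES-A, MTAP. Of all 7460 genes, 1055 (TMM) and 1036 (DESeq2) were lower in RES-B, and 1261 and 1216 in RES-A. In the hypusine pathway, which uses spermidine to modify the translation factor EIF5A, 3 of 4 genes reached a mean of 10 CPM. EIF5A was at 219 CPM in parental cells, 223 after 48 h of ENZ, 304 in RES-A and 322 in RES-B, while DHPS, the enzyme that transfers the spermidine part, was at 113, 118, 77.9 and 81.1 CPM. DHPS was lower and EIF5A higher in both resistant lines. DOHH had log2 ratios against LNCaP of 0.14 (-0.012 to 0.29) in RES-A and 0.18 (0.028 to 0.33) in RES-B. EIF5A2, whose mean was 8.17 CPM, stood at 0.39 (0.21 to 0.57) in RES-A and -0.94 (-1.18 to -0.70) in RES-B. Of the genes past the minimum, DHPS passed 0.5 in size in RES-A, beside 14.7% of all genes lower. EIF5A passed it in RES-B, beside 18.6% higher. With TMM or DESeq2 factors DHPS passed it in both lines and EIF5A in neither. Of the transport genes, the lysosomal polyamine exporter ATP13A2 was at 9.46, 9.47, 12.03 and 19.1 CPM in the same order, and its relative ATP13A3, linked to polyamine uptake, at 25.3, 20.4, 18.6 and 16.7 CPM. In RES-B against LNCaP they differed in opposite directions (1.01 and -0.60), beside 18.6% of all genes higher and 10.6% lower. The 50 genes around ATP13A2 were higher there by 0.36, whose part in its ratio was not tested. With TMM or DESeq2 factors SLC3A2, a subunit of amino acid transporters, was also past 0.5 lower in RES-B, beside 1055 and 1036 of all genes. OAZ3, the antizyme known from the testis, was at 13.3, 11.3, 26.6 and 28.9 CPM, with ratios of 1.00 for RES-A and 1.12 for RES-B.

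SAT1 was the only one of the 10 genes whose log2 CPM spanned at least 1 over the 4 libraries. Likeness was measured as the Euclidean distance between centred log2 CPM over these 4 values, among genes whose mean reached 10 CPM. The 3 nearest genes were CORO2A (distance 0.31), NCAM2 (0.31) and MAOA (0.42). NCAM2 was at 239, 266, 47.3 and 71.3 CPM from parental cells to RES-B in the order used above, and MAOA, a monoamine oxidase, at 130, 127, 37.0 and 31.1 CPM. With 4 values per gene, many genes can show such a pattern.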

How the data were processed

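The data were 4 droplet-based 3′ scRNA-seq libraries of established cell lines. The deposited values are UMI counts per gene and cell barcode, which the authors made with Cell Ranger 3.0.2 against GRCh38, per the submitters' processing notes and the file headers; reads that fit more than 1 gene are not counted. The deposited values were not normalized. Groups came from the sample titles. The polyamine genes, the lists and the alternatives were chosen with earlier results of these data known.

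The study's own cell limits were applied: for LNCaP 3000 to 7000 genes, 16000 to 50000 UMIs and under 15% mitochondrial UMIs; for the others 1500 to 5000 genes and 5000 to 25000 UMIs, with mitochondrial limits of 15% (LNCaP-ENZ48), 17% (RES-A) and 20% (RES-B). Doublets were not removed: Scrublet (scanpy 1.11.5) marked under 1% of the cells of each library, too few to have worked, so an alternative left out the cells with the highest scores. UMIs were summed over the cells of a library and scaled to CPM with exact Poisson intervals; log2 ratios have conditional binomial (Clopper-Pearson) intervals. Library sums of 50208831 to 60838227 UMIs set the precision of each level, which its interval states. The calculation of ratios and intervals was tested on simulated data. Phases were called by scanpy with the Seurat 5.3.0 lists on cells thinned to 5000 UMIs. Scaling alternatives were edgeR 4.0.16 TMM and DESeq2 1.42.0 size factors; neither tool was used for a test, because a group is 1 library. The test over cells used in the study was left out, since cells are not replicates.

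Named genes were all 10 polyamine genes and, from 5 lists of related genes, those whose mean reached 10 CPM and with a log2 ratio of at least 0.5 in size in any comparison, or at 0 UMIs. DOHH and EIF5A2 of the hypusine pathway are named as well. Positions came from GENCODE 44 (GRCh38), which is later than the annotation behind the counts and in which 33113 of 33538 gene IDs were found. Part of the luminal marker list and 1 searched promoter motif are not reported here.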

Additional observations from a re-analysis of the deposited data

Results flagged for a closer look

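ODC1 differed from LNCaP in opposite directions in the resistant lines, with a log2 CPM ratio of 0.42 for RES-A and -0.31 for RES-B. Each line is 1 library, and the difference between the lines was not tested. It is listed because the ratios had opposite signs.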

How the results depend on the processing

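No paired analysis was possible because each group has 1 library and no comparison was tested; for the same reason no library could be left out. In RES-B against LNCaP the number of polyamine genes at least 0.5 higher went from 1 to 0, and the number at least 0.5 lower from 1 to 2, with TMM factors, with DESeq2 size factors and in cells called G1, as SRM dropped below 0.5 and AMD1 passed it. Under the same 3 settings the number lower in RES-A against LNCaP went from 2 to 3, with AZIN1. Across the 10 alternatives run for the counts, the other counts kept their value. Ratios that changed sign were OAZ1 in RES-B against LNCaP (0.063, -0.043 with TMM and -0.035 with DESeq2 factors), SAT1 in LNCaP-ENZ48 against LNCaP (-0.032, 0.063 with TMM, 0.069 with DESeq2 factors, 0.024 in thinned cells and 0.028 in G1 cells), SAT1 in RES-B against RES-A (0.20, -0.0066 in G1 cells) and 3 whose counting interval held 0: SMS in RES-B against LNCaP (-0.020, 0.020 without mitochondrial genes in the totals), OAZ2 in the same comparison (-0.028, 0.012 without mitochondrial genes and 0.032 in G1 cells) and SMOX in RES-A against LNCaP (-0.0029, 0.00047 to 0.21 in 4 alternatives). The cause of the changes in thinned or G1 cells was not tested. The scaling factors shifted the median of all genes by 0.096 (TMM) and 0.10 (DESeq2) in LNCaP-ENZ48 and by -0.11 and -0.099 in RES-B, each against LNCaP. Of 40 ratios, 13 kept their value within counting error with TMM factors, 15 with DESeq2 factors, 21 in G1 cells, 23 in thinned cells, 35 without mitochondrial genes in the totals, 37 with no filter, and all under 1 filter for all libraries and without the highest doublet scores. Counts over the wider pathway lists with TMM and DESeq2 factors were also added after seeing the data and are given with the lists. Fano factors in G1 cells and without the highest doublet scores were added too; of 24 values, 1 moved by over 10%, ODC1 in LNCaP (1.86, 2.15 in G1 cells). Depth limits PAOX and SMOX, whose ratios have wide intervals. These held 0 in some comparisons, such as SMOX in RES-A against LNCaP (-0.30 to 0.29). In others they did not, such as PAOX (0.24 to 0.74) and SMOX (-0.78 to -0.12) in RES-B against LNCaP.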
